A study of Homo sapiens with 5 samples.

Results

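Glycolysis and hypoxia response genes were defined as a set of 37 genes, namely glycolytic enzymes, hypoxia-inducible factors (HIF) with their hydroxylases, and HIF targets. The members used were those with a row in each of the 3 expression tables of the series. This held for 33 of the 37 genes, out of 10976 genes with a row in every table and 12468 with a row in any. CA9, a carbonic anhydrase of hypoxic cells, had a row only in the tables of reconstituted cells, with an average of 2.60 log2 CPM (read counts scaled to a common library size). EGLN3, a HIF prolyl hydroxylase, ALDOC, the brain-type aldolase, and ANKRD37, an ankyrin repeat protein and HIF target, had no row.

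The RNA came from HLF cells, a hepatocellular carcinoma line, with no drug treatment listed for the samples. USP28 is a deubiquitinase, an enzyme that removes ubiquitin from proteins and so can spare them from degradation, and it forms dimers. The monomeric mutant lacks this pairing and is not a catalytically dead enzyme. The knockout arm compared USP28-Ctrl cells, which received a control guide RNA, with USP28-KO cells, in which USP28 was deleted by CRISPR-Cas9. The reconstitution arm consisted of USP28-KO cells carrying a control vector, USP28-KO cells expressing wildtype USP28 (USP28-WT) and USP28-KO cells expressing a monomeric mutant (USP28-M), so that all of its cells shared the deletion. The knockout was established from single-cell clones after puromycin selection and checked by immunoblotting. The USP28 variants came from lentiviral vectors, and transduced cells were selected with an antibiotic. Each of the 5 conditions is listed as 1 sample, and the number of libraries behind each is not given in the sources used here.

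HIF1A and EPAS1 encode the alpha subunits of the hypoxia-inducible factors, and ARNT encodes the beta subunit with which they pair on DNA. In the presence of oxygen, prolyl hydroxylases such as EGLN1 mark the alpha subunits for destruction by the VHL ubiquitin ligase, so the activity of the pathway is set largely at the protein level. HIF1A protein has been reported as a substrate of USP28. Its targets include most genes of glycolysis, the chain of reactions that turns glucose into pyruvate and lactate, which many tumor cells run also when oxygen is present.

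For each gene, the level used was the average log2 CPM that the authors' fit gave over its libraries. The knockout fit averages USP28-Ctrl and USP28-KO cells, and the reconstitution fit averages the control vector, USP28-WT and USP28-M cells. These averages have no replicate spread, and no level was computed for a single condition. No difference between USP28-KO and USP28-Ctrl, or between USP28-M and USP28-WT, is therefore reported. Judged by the steps between the lowest averages, the knockout fit rests on 7690000 reads and the reconstitution fit on 30460000. The steps were whole reads to within 0.1 read for 96.58% of the 1110 lowest genes of the knockout fit and for 66.13% of the 1234 lowest genes of the reconstitution fit, so the second total is less certain. Because the RNA was taken in bulk, fewer cells expressing a gene and less RNA per cell cannot be told apart. Intervals of levels, shares and differences below are 95% intervals that cover counting error only. The read counts behind them were not corrected for the prior of 2 reads per library assumed in the averages, which weighs most where reads are few. USP28 itself averaged 5.15 log2 CPM in the knockout fit and 9.79 in the reconstitution fit, which includes cells with an introduced USP28 reading frame.

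Hepatocyte markers nearly all lacked a row although the line is of hepatic origin. In the knockout fit this held for 8 of 8, including albumin (ALB), alpha-fetoprotein (AFP) and the regulator HNF4A, and SERPINA1 was the single one with a row in the reconstitution fit, at 1.88 log2 CPM. The keratins KRT8 and KRT18 averaged 11.18 and 10.66 log2 CPM in the knockout fit, while the epithelial adhesion genes EPCAM and CDH1 had no row. The mesenchymal gene VIM averaged 11.71 and 11.69 log2 CPM in the knockout and reconstitution fits. The 3 endothelial markers had no row. Of the 3 immune markers PTPRC and CD3E had none, while CD68, which is also a lysosomal gene, averaged 6.86 and 7.73. Of the 4 stromal markers, PDGFRB averaged 5.76 and 6.11 log2 CPM and ACTA2 2.94 and 1.51, LUM had a row only in the knockout fit, at 3.17, and DCN had none.

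HIF binds DNA at a short core, ACGTG or GCGTG, read on either strand, and the promoters of the members were searched for these letters. RefSeq windows of 300 bases, reaching from 250 bases before a transcription start to 50 after it, were at hand for 30 of the 33 members, all but VEGFA, BNIP3L and NDRG1. For each member a stretch of 60 bases was centred on the largest group of matches in its richest window, and those that end before the start and hold at least 2 matches are printed here. They are given 5′ to 3′ on the strand of the gene with coordinates of GRCh38.p14, and the capitals mark matches. CACGTG is its own reverse complement and counts as a match on each strand, so the 2 matches of ALDOA, GAPDH and PFKFB3 are a single palindrome each.
HK2, hexokinase 2, chr2:74834971-74835030, plus strand: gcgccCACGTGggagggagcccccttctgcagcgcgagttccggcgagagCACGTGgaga
PFKP, platelet-type phosphofructokinase, chr10:3104544-3104603, plus strand: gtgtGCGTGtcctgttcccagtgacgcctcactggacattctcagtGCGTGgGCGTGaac
ALDOA, aldolase A, chr16:30064358-30064417, plus strand: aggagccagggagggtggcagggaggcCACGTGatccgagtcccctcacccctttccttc
TPI1, triosephosphate isomerase, chr12:6868035-6868094, plus strand: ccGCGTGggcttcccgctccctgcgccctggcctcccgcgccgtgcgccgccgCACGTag
GAPDH, glyceraldehyde phosphate dehydrogenase, chr12:6535156-6535215, plus strand: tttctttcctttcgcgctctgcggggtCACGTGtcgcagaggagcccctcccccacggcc
PGK1, phosphoglycerate kinase, chrX:78104023-78104082, plus strand: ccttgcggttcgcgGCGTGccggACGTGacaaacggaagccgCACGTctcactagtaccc
LDHA, lactate dehydrogenase A, chr11:18394455-18394514, plus strand: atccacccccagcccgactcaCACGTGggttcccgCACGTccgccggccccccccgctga
PFKFB3, a regulator of phosphofructokinase, chr10:6202797-6202856, plus strand: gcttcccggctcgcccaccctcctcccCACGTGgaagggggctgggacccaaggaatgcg
BNIP3, a mitophagy receptor, chr10:131982015-131982074, minus strand: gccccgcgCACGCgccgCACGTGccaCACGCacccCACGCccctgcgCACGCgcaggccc

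BNIP3 had the most matches in a stretch of this length, 6, followed by HK2 with 4. All 4 of HK2 come from palindromes counted on both strands, so its stretch holds fewer separate sites than those of PFKP and PGK1, with 3 each. Over whole windows, HK2, LDHA and BNIP3 each reached 6 matches in their richest window, palindromes included. With each palindrome taken as a single site, BNIP3 still had the most of these members. HK2 and LDHA then had no more than PGK1 and DDIT4, whose 4 matches each include no palindrome. In contrast, ARNT, the phosphoglycerate mutase PGAM1 and the collagen prolyl hydroxylase P4HA2 had none. In all, 27 of 30 members (90%, 95% Wilson interval 74.4 to 96.5%) had a match in at least 1 window, among them 15 of the 16 glycolytic enzymes. The same was true of 6351 of 8828 genes with a row in every table (71.9%) and of 14318 of all 27305 genes with a window (52.4%). The 30 members have 57 windows, and the 8828 genes have 12875. Counted by window rather than by gene, 37 of the 57 member windows held a match (64.9%), against 62.1% of the windows of genes with a row in every table. By window, the shares thus lay close together. For ACGTG alone the share was 56.7% of members (39.2 to 72.6%) and 33.7% of genes with a row in every table, and by window it was 36.8% against 26.3%. A match is only a run of letters, and binding of HIF or of any other factor was not measured in the data used here.

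Among the HIF factors, HIF1A was the most abundant. It averaged 8.06 log2 CPM in the knockout fit and 7.62 in the reconstitution fit, from 2058 and 5983 reads. EPAS1, which encodes the alpha subunit HIF-2α, averaged 5.30 and 6.11 log2 CPM, and ARNT 5.84 and 6.22. Per kilobase of transcript, HIF1A stood at 67.6 CPM, EPAS1 at 7.64 and ARNT at 11.7 in the knockout fit, so that HIF1A made up 89.9% (88.7 to 90.9%) of the mRNA of the 2 alpha subunits. In the reconstitution fit the share of HIF1A was lower, at 78.8% (77.9 to 79.6%), with 49.7 CPM per kilobase for HIF1A and 13.4 for EPAS1. Thus HIF1A led in both fits by a margin beyond counting error.

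EGLN1, the hydroxylase that marks HIF alpha subunits in oxygen, averaged 6.99 and 6.96 log2 CPM in the knockout and reconstitution fits. Of 5 further genes of the oxygen-sensing pathway, 3 had a row in both fits. The asparaginyl hydroxylase HIF1AN was the highest of these on the log2 CPM scale, at 6.10 and 6.44, and VHL the lowest, at 4.93 and 5.63, with the prolyl hydroxylase EGLN2 between them at 5.78 and 6.21. ARNT2 and HIF3A, tissue-restricted relatives of ARNT and of the alpha subunits, had no row. FBXW7, a ubiquitin ligase subunit whose substrates USP28 is known to spare, averaged 4.32 and 4.06 log2 CPM.

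The glycolytic enzymes were among the most abundant mRNAs of the cells. Per kilobase of transcript, 11 of the 16 enzymes stood above the 90th percentile of all genes with a transcript model in each fit (10431 and 11276 genes), and their median percentile was 97.5 in the knockout fit and 97.3 in the reconstitution fit. The other 17 members were lower, with medians at percentiles 59.0 and 70.8. The 16 enzymes together accounted for 1.70% of the summed CPM of the knockout fit and for 2.29% of that of the reconstitution fit. GAPDH led, with 12.36 and 12.66 log2 CPM and 2799 and 3452 CPM per kilobase. It was followed in both fits by enolase 1 (ENO1), with 1283 and 1611 CPM per kilobase, and by ALDOA, with 1193 and 1522. Reads of such genes can be shared with processed pseudogenes, and GENCODE release 29 names 62 pseudogenes after GAPDH, 39 after BNIP3, 13 after PGAM1 and at least 1 after each of 10 further members. How the counting treated these reads is not given in the sources used here, so the levels of these genes are uncertain to that extent.

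Along the pathway the mRNA of the enzymes was spread unevenly. Hexokinase, which traps glucose in the cell, had the lowest sum over its isoenzymes, with 28.3 CPM per kilobase in the knockout fit and 44.4 in the reconstitution fit. Glucose phosphate isomerase (GPI) followed, with 92.1 and 122 CPM per kilobase. Phosphofructokinase, the main control point, reached 343 and 497. The step with the most mRNA, GAPDH, exceeded the hexokinase step 98.9-fold in the knockout fit and 77.7-fold in the reconstitution fit. These places depend on the transcript model. With the median length of all coding transcripts the enolases led, with 4780 and 5995 CPM per kilobase against 4103 and 5060 for GAPDH. GPI then rose to 650 and 858, above PGK1 and PGAM1, and the highest step exceeded hexokinase 153-fold and 121-fold. However, the median length is shorter than the longest coding sequence for ENO1 (637 against 1302 bases) and for GPI (615 against 1791).

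In the lower part of the pathway, PGK1 stood out with the least mRNA per kilobase, 99.7 and 160 CPM, next to GAPDH with the most. PGAM1 had 325 and 466 CPM per kilobase, the enolases together 1321 and 1654, and pyruvate kinase (PKM) 600 and 934. Lactate dehydrogenase, which turns pyruvate into lactate, had 915 and 1138. The steps from GAPDH to lactate dehydrogenase (steps 6 to 11) were set against those from hexokinase to TPI1 (steps 1 to 5). The former summed to 2.90 times the mRNA per kilobase of the latter in the knockout fit and to 2.67 times in the reconstitution fit. The sums cover unequal numbers of steps, and GAPDH alone gave 2799 and 3452 CPM per kilobase. With the main transcript model, the order of the 11 steps by summed CPM per kilobase was the same in both fits.

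Several steps can be run by more than 1 isoenzyme, and in most families a single gene carried most of the mRNA. PFKP made up 79.5% of phosphofructokinase mRNA per kilobase in the knockout fit and 81.5% in the reconstitution fit, ahead of the liver type PFKL (14.2 and 12.8%) and the muscle type PFKM (6.31 and 5.63%). ENO1 made up 97.1 and 97.4% of enolase mRNA, the remainder being the neuronal type ENO2. LDHA, the form that favours lactate, made up 76.7% of lactate dehydrogenase mRNA in the knockout fit (75.9 to 77.5%) and 86.9% (86.6 to 87.2%) in the reconstitution fit, and LDHB the rest.

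The hexokinases were the single family of the 8 whose leading gene was not the same in both fits. HK2, the hexokinase of many tumors, made up 53.0% of the family in the knockout fit (49.9 to 56.0%), so that neither gene led beyond counting error, at 6.43 log2 CPM against 5.73 for HK1. In the reconstitution fit HK1, the housekeeping form, led with 55.6% (54.4 to 56.8%), at 6.63 log2 CPM against 6.83 for HK2. This lead rests on the division by transcript length, since HK1 had 46.5% of the family without it.

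Outside the enzymes of the main chain, PFKFB3 made up 97.6 and 96.3% of the PFKFB pair, whose products set the level of a strong activator of phosphofructokinase. BNIP3 made up 75.4 and 72.8% of the mRNA of the mitophagy receptors BNIP3 and BNIP3L. P4HA1 made up 71.7 and 68.1% of the collagen prolyl hydroxylases P4HA1 and P4HA2. The last 2 results depend on the transcript model. With the median length of all coding transcripts BNIP3L led, with BNIP3 at 43.7 and 40.4%. Likewise P4HA2 led, with P4HA1 at 40.0 and 36.0%. The median length of P4HA2, 866 bases, is however shorter than its longest coding sequence, 1605 bases.

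**Figure D1:**
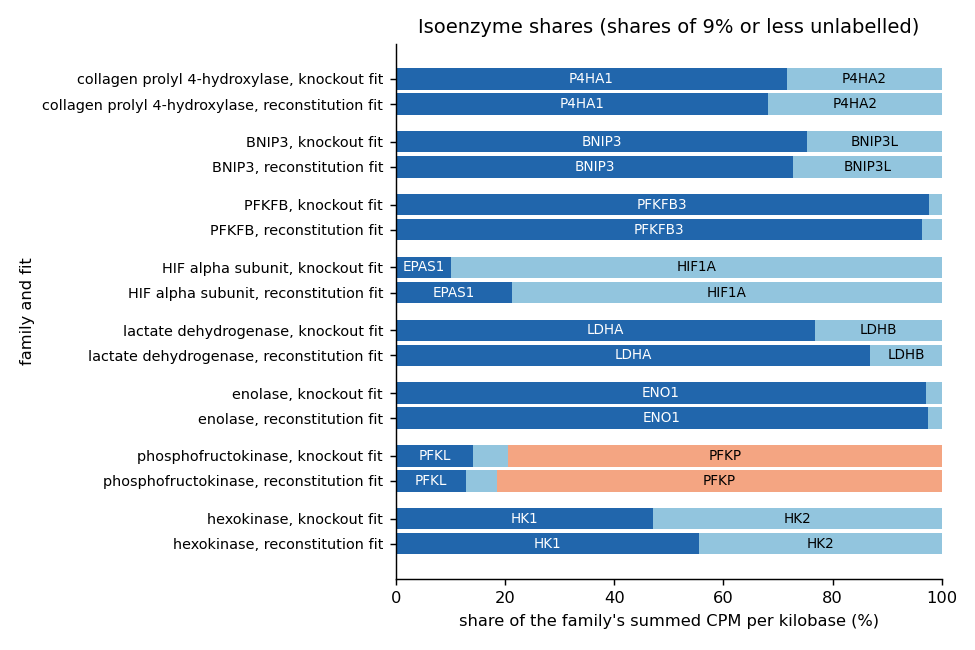
Share of each gene in its family. The x axis gives the share of the family's summed CPM per kilobase in percent, and the y axis lists 8 families, each with a bar for the knockout fit and a bar for the reconstitution fit. The leading gene is the same in both bars except for hexokinase, where HK2 has 53.0% in the knockout fit and HK1 55.6% in the reconstitution fit.

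Several isoenzymes typical of the liver had no row. Of 21 further isoenzymes and enzymes of glucose production, 12 had no row in any table. These included the liver pyruvate kinase PKLR, the glucose transporter SLC2A2 and the enzymes of gluconeogenesis FBP1, PCK1 and G6PC. On the log2 CPM scale the highest of this list in both fits was G6PC3, a widely expressed glucose phosphatase, at 7.17 and 6.96. The lowest was PDK3, a pyruvate dehydrogenase kinase, at 2.70 in the knockout fit, and PDK4, another such kinase, at 1.38 in the reconstitution fit. Low levels are less certain, because the lowest averages listed were 1.70 log2 CPM in the knockout fit and 0.40 in the reconstitution fit, and a gene without a row may still have been transcribed at a low level.

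The transporters and flux regulators spanned a wide range. PFKFB3 was highest, with 7.52 and 7.96 log2 CPM and 79.6 and 108 CPM per kilobase. The glucose importer SLC2A1 had 6.44 and 6.87 log2 CPM, and the lactate exporter SLC16A3 6.25 and 6.93. PDK1, the kinase that holds back pyruvate from the mitochondria, was at 3.64 and 4.18 log2 CPM, from 96 reads in the knockout fit. PFKFB4 was the lowest member in both fits, with 2.79 and 3.89 log2 CPM, and its 53 reads in the knockout fit leave a counting interval of 5.16 to 9.01 CPM.

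Of the other HIF targets, BNIP3 averaged 7.63 and 7.91 log2 CPM and BNIP3L 6.35 and 6.83. ADM, which encodes the vasodilator peptide adrenomedullin, averaged 7.44 log2 CPM in the knockout fit and 6.54 in the reconstitution fit. The angiogenic factor VEGFA averaged 5.81 and 6.09, and NDRG1, a stress-responsive gene, 5.44 and 6.08. P4HA1 averaged 6.0 and 6.07 and P4HA2 4.89 and 5.21. DDIT4, an inhibitor of mTORC1 signaling, was the lowest of them, with 3.36 and 4.90 log2 CPM from 79 and 911 reads. Of 17 further HIF targets, 15 had a row in both fits, with the collagen-modifying enzyme LOXL2 the highest on the log2 CPM scale (8.98 and 9.38), and LOX in the knockout fit (2.78) and MXI1 in the reconstitution fit (2.69) the lowest, whereas CA12 and RRAGD had no row.

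The order of the members by CPM per kilobase was much alike in the fits. The rank correlation over the 33 members was 0.981 (Spearman), as a description, since both fits share the cell line and the transcript lengths. Over all genes with a row in both fits, the rank correlation of log2 CPM was 0.934. The first 8 places, from GAPDH through ENO1, ALDOA, LDHA, PKM, TPI1 and PGAM1 to PFKP, were the same. Of the 32 pairs of neighbours in the knockout order, 10 stood the other way round in the reconstitution fit. The largest move was that of ADM, from place 12 to place 17, while EGLN1 moved from 23 to 27 and DDIT4 from 32 to 28. Most exchanged neighbours were close in level in the knockout fit, such as P4HA1 and PFKM (22.4 and 21.6 CPM per kilobase) or ARNT and NDRG1 (11.7 and 11.5). ADM and PFKFB3, with 92.1 and 79.6 there, stood far apart in the reconstitution fit, at 49.3 and 108. LDHB and PGK1 were further apart in the knockout fit, with 213 and 99.7 CPM per kilobase, against 149 and 160 in the reconstitution fit.

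The averages of both fits were then set side by side. The fits were normalized separately and differ in their cells, libraries and depth, and these cannot be told apart. The median of all shared genes differed by -0.12 on the log2 scale (reconstitution minus knockout), and differences below are relative to it. At a difference of at least 2-fold stood 3 of the 33 members, all higher in the reconstitution fit, against 9.02% of the 10976 shared genes, of which 2.41% were higher and 6.61% lower. They were DDIT4 (3.18-fold), PFKFB4 (2.34-fold) and HK1 (2.02-fold). The counting intervals of these log2 differences were 1.33 to 2.0, 0.82 to 1.64 and 0.86 to 1.16, so that PFKFB4 and HK1 were not separated from 2-fold. No member was lower by 2-fold.

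Below that limit most members lay above the median gene. Of the 33, 30 had a higher average in the reconstitution fit relative to the median gene (29 without this centring, EGLN1 then being at -0.03), and the median of their differences was 0.52 on the log2 scale, while the middle 50% of shared genes ran from -0.38 to 0.32. Among the glycolytic enzymes this held for 15 of 16, with TPI1 at 0.90, PGK1 at 0.80, PKM at 0.76 and GAPDH at 0.42. The exceptions were ADM at -0.78, LDHB at -0.39 and HIF1A at -0.32. EPAS1 stood at 0.93 on the same scale, so the alpha subunits differed in direction.

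Base composition and expression level moved with these differences. Across the 10352 shared genes with a transcript model, the difference correlated with the GC content of the transcript (Spearman 0.488, a description across genes that share their libraries). The median difference was 0.12 in the bin of highest GC and -0.77 in that of lowest GC, and it was 0.20 and -0.56 in the bins of highest and lowest average expression. Members had a median GC content of 53.1%, against 48.3% for the shared genes. When differences were centred within bins of GC content, the median of the members was 0.39, and 31 of 33 lay above 0. HIF1A, whose transcript has 36.4% GC, then stood at 0.44 in place of -0.32, so its direction depends on this correction. HK1 fell below 2-fold (1.68-fold), BNIP3L reached 2.13-fold, and ADM (-0.98) and LDHB (-0.48) remained below 0. Whether the conditions of the study have a part in these differences was not tested.

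In the wider lists, 3 of the 15 further HIF targets with a row in both fits were at least 2-fold higher in the reconstitution fit and none was lower, against the 2.41% and 6.61% of all shared genes given above. ANGPTL4, a secreted inhibitor of lipoprotein lipase, differed most, with 4.21 log2 CPM in the knockout fit and 7.61 in the reconstitution fit, a relative difference of 11.5-fold. The transferrin receptor TFRC and the phosphoglucomutase PGM1 were just past the limit (2.02-fold and 2.01-fold), from which their counting intervals did not separate them, and lay below it without centring. The lowest was PLOD2, a collagen lysyl hydroxylase, at -0.71 on the log2 scale. The median difference of these 15 genes was 0.13 on the log2 scale, lower than that of the members. Of the 8 further isoenzymes with a row in both fits, PFKFB2 (2.24-fold) and the glucose transporter SLC2A3 (2.35-fold) were higher and the muscle enolase ENO3 (2.41-fold) was lower, beside the same shares of all shared genes. Among the marker genes, the keratins KRT8 and KRT18 differed by 0.96 and 0.67 on this log2 scale and CD68 by 0.99. The mesenchymal genes VIM, CDH2 and FN1 stood at 0.10, 0.47 and -1.002, and the stromal genes PDGFRB and ACTA2 at 0.47 and -1.30, so that neither list moved in a single direction. The part of these shifts in the values of the members was not tested.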

How the data were processed

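Total RNA of HLF cells in 5 conditions, with no drug treatment listed, was sequenced after preparation with an NEBNext Ultra kit on a NovaSeq instrument. According to the submitters' processing notes the authors used bcl2fastq 2.20, STAR 2.5.4, the hg19 build and edgeR 3.26.8. The counting program, its use of strand and the filter on low genes are not given in the sources used here. The 3 deposited tables hold, per gene, an average log2 CPM from the authors' edgeR fit, which pools the libraries of a fit, and the authors' fold changes, F statistics, p-values and adjusted p-values between conditions. The latter are the authors' own comparisons and were not used. Both tables of reconstituted cells list identical averages and were treated as 1 fit. The columns used are averages over a fit, so there was no per-sample column to match to a sample (0 left without a match).

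Members and lists were chosen with earlier results of these data known. All members are accounted for, and values are given for every member that is an isoenzyme, glycolytic enzyme, HIF factor and hydroxylase, for members past 2-fold and for the extremes of each list. CPM per kilobase used the GENCODE 29 transcript with the longest coding sequence, and promoter windows came from RefSeq. Reads were obtained by dividing each average CPM by the step found among the lowest 10% of averages. The prior of 2 reads per library assumed in the averages was not subtracted. Counts pooled over the libraries of a fit can thus be too high by more than 2 reads, which matters for genes with few reads. Intervals are exact Poisson intervals for levels and normal intervals on the log or logit scale for differences and shares. The depth estimate and the differences were tried on simulated counts, drawn as a single pooled count per gene. Recovery of depth from an average over separate libraries was not tested. No test between conditions was made, because only averages over conditions were used. The planned comparison of protein sequences was not made. Genes of the wider lists are given by counts, with values for the extremes and those past 2-fold, and a few are not reported here. Computations used Python 3.11.15, numpy 2.4.6, scipy 1.17.1 and matplotlib 3.10.9.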

Additional observations from a re-analysis of the deposited data

How the results depend on the processing

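The per-kilobase levels depended most on the transcript model: with the median length of all coding transcripts in place of the transcript with the longest coding sequence, the median member rose from 43.8 to 89.3 CPM per kilobase in the knockout fit and from 49.3 to 122 in the reconstitution fit, and 6 of the 8 families kept their leading gene in each fit. Without division by length, 8 families kept it in the knockout fit and 7 in the reconstitution fit. Of 36 shares recomputed under these settings, or with further isoenzymes added to the enolases and the PFKFB pair, 35 moved by more than their counting interval, by at most 32.4 percentage points. For some members, such as ENO1, GPI and P4HA2, the median length is shorter than the longest coding sequence. The median percentile of the members by log2 CPM was 84.5 in the knockout fit and 85.6 in the reconstitution fit, and in the latter it was 83.8 among genes with a row in every table and 82.1 among genes of at least 3 log2 CPM. The count of 3 members at least 2-fold apart became 15 at 1.5-fold (27.1% of shared genes), 2 without centring and 1, DDIT4, among genes of at least 3 log2 CPM in both fits. Centring within 20 bins of GC content gave 3 and within 20 bins of average expression 2, and these settings, like the median length for the steps of glycolysis, were chosen after seeing the data. The share of members with a HIF core fell from 90 to 56.7% for ACGTG alone. The pooled depths from the lowest 5% of genes were 7700000 and 30480000 reads. No library could be left out, since the values are averages over a fit. No paired analysis was possible because the columns used carry no replicate numbers. Genes with few reads, such as PFKFB4, DDIT4 and PDK1 in the knockout fit, have the widest counting intervals.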
